A study of Mus musculus with 18 samples.

Results

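The Hox genes encode homeodomain transcription factors. They were taken here by name alone, as rows named Hox followed by a cluster letter a to d and a paralogue number. 37 Hox genes are described, among the 54279 rows of each deposited table, and Hoxa2 is not analysed here. The 37 genes fall into 9 of the HoxA cluster, 10 of HoxB, 9 of HoxC and 9 of HoxD. By paralogue group, 6 are anterior (groups 1 to 3), 15 central (4 to 8) and 16 posterior (9 to 13).

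The cells were mouse oligodendrocyte progenitors (OPCs), which divide and give rise to the cells that make myelin; they were made from epiblast stem cells and grown with Fgf2 and Pdgfa. They carried a CRISPR edit of Vhl, whose protein marks hypoxia-inducible factor for degradation, or a CRISPR control. Each genotype was sampled untreated and, in a second experiment, after 14 h in medium with 300 nM of the MEK kinase inhibitor AZD8330 or with its solvent DMSO. The 6 groups are Vhl untreated, control untreated, Vhl AZD8330, control AZD8330, Vhl DMSO and control DMSO, with 3 libraries each, lettered A to C. The sources used here do not say which part of Vhl was edited, or whether each genotype is a clone, a pool or several lines, so an effect of the edit and a difference between lines cannot be told apart.

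Hox genes sit in order along their clusters. In the embryo they are switched on from the anterior end of each cluster to the posterior end, and cells at more posterior levels of the body use more of the cluster. In the central nervous system the forebrain and midbrain lack Hox expression, the hindbrain uses anterior groups, and the spinal cord adds central and then posterior groups. Retinoic acid and Cdx factors are known inputs that open the clusters, Polycomb complexes keep unused Hox genes silent, and Pbx and Meis proteins are cofactors of Hox proteins on DNA.

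Totals lay between 14594148 and 21160250 estimated counts in the untreated libraries and between 12391077 and 16349676 in the drug experiment. Untreated libraries spread more within groups, with a common edgeR dispersion of 0.144 against 0.0161 in the drug experiment. The untreated A libraries stood apart in Sox10, a transcription factor of the oligodendrocyte lineage, with 326.2 CPM in Vhl A and 525.5 CPM in control A, where the B and C libraries held between 15.28 and 87.82 CPM. No Vhl library reached the Vhl mRNA level of a control library given the same treatment: 73.94 to 89.95 against 116.6 to 125.1 CPM untreated, 91.79 to 104.4 against 136.3 to 139.4 CPM in AZD8330, and 89.81 to 93.85 against 102.0 to 108.5 CPM in DMSO. CPM is the usual abundance per library, here the count scaled to the TMM-adjusted library total.

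The cells used some anterior and central genes of HoxA and HoxB, and the other Hox genes were at or near 0. Of the 37 Hox genes, 7 were active in each experiment, meaning that their mean reached 1 CPM and they entered the tests: Hoxa3, Hoxa4, Hoxa5 and Hoxa7 of HoxA, and Hoxb2, Hoxb3 and Hoxb4 of HoxB. The lowest value of an active gene in any library was 2.662 CPM (Hoxa4), and the highest value of any other Hox gene was 0.761 CPM (Hoxa6), so the division did not depend on a library. The 7 active genes held 54412 counts over the 18 libraries and the other 30 held 329, which puts 99.4% of Hox counts in the active genes. By class, 3 of 6 anterior and 4 of 15 central genes were active, and none of the 16 posterior genes was. None of the 18 genes of HoxC and HoxD was active.

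**Figure D1:**
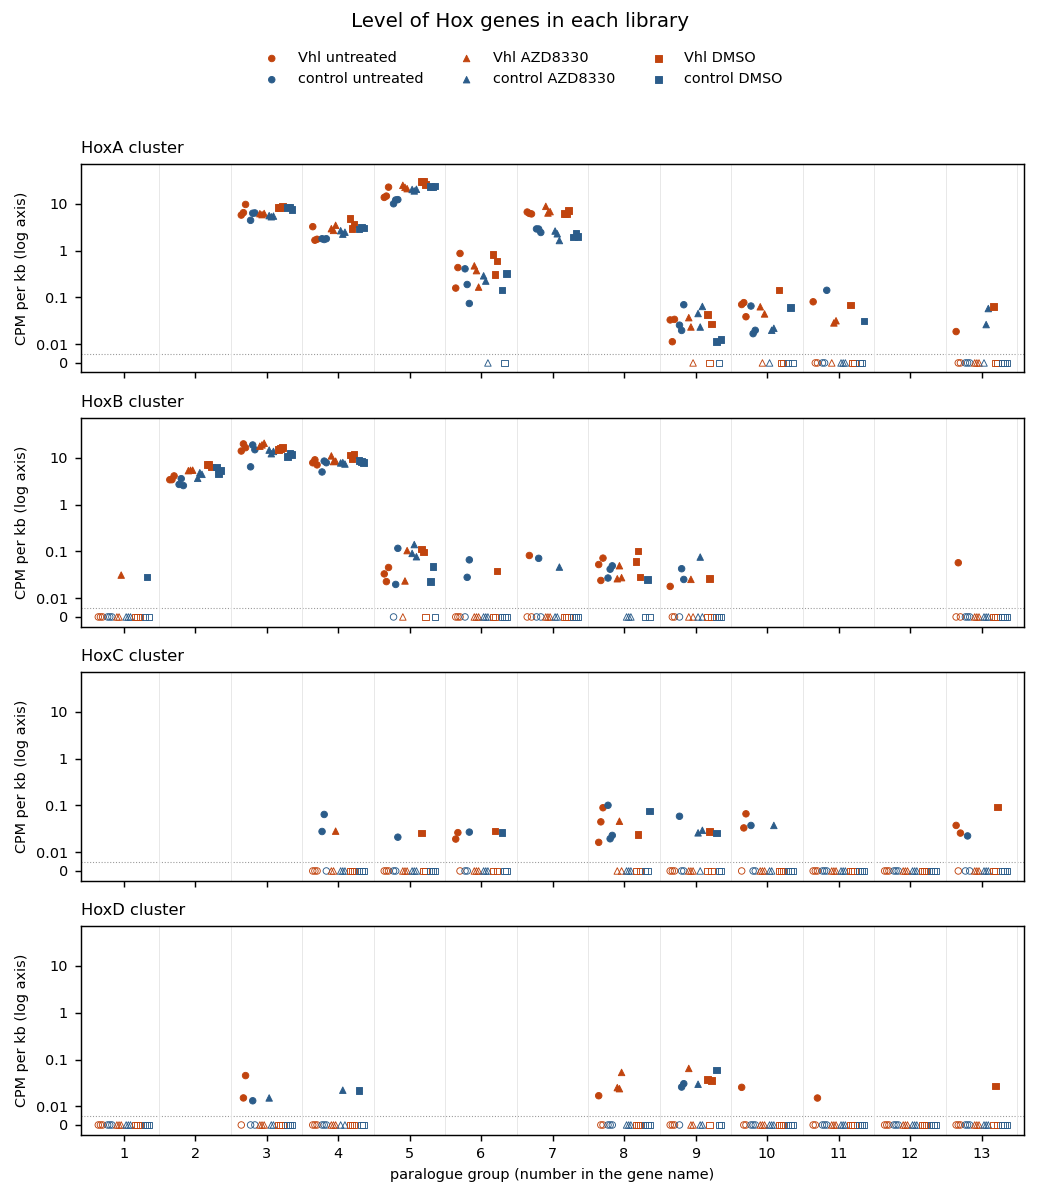
Level of the 37 Hox genes in each library, as CPM per kb of annotated exon on a log axis, by cluster (panels) and paralogue group (x axis): red marks are Vhl and blue marks control libraries, circles are untreated, triangles AZD8330 and squares DMSO, and open marks below the dotted line are libraries with 0 counts; an empty position has no gene or is not shown. The 7 active genes lie toward the low-numbered end of HoxA and HoxB, with Hoxb1 at or near 0 and Hoxa6 below the genes on both sides.

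The 7 active genes were not equally expressed. Per kb of exon, Hoxa5 was highest in the drug experiment, at 23.63 CPM per kb over the 12 libraries, followed by Hoxb3 at 15.00, Hoxb4 at 9.09, Hoxa3 at 7.03 and Hoxb2 at 5.51. Hoxa7 and Hoxa4 followed at 4.52 and 3.10 CPM per kb. In the untreated table Hoxb3 (15.07 CPM per kb) and Hoxa5 (14.23 CPM per kb) led, and the next were Hoxb4 at 7.55, Hoxa3 at 6.502 and Hoxa7 at 4.54 CPM per kb. The order depends in part on the length used. Divided by its longest transcript in place of all its exons, Hoxa3 stood at 16.32 CPM per kb in the drug experiment, above Hoxb4, and at 15.09 in the untreated table, above Hoxb4 and Hoxa5. Hoxb3 then stood at 19.98 and 20.08 CPM per kb. On the same scale Hoxa7 stood above Hoxb2 in the drug experiment, at 6.398 against 6.135 CPM per kb.

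HoxA lies on the minus strand of chromosome 6, with Hoxa3 at 52169062 to 52213336 and Hoxa13 at 52257694 to 52260880 (GRCm38). Its active block ended after Hoxa7 (52214491 to 52221854). Hoxa9, a posterior gene that begins 1245 bases further along the annotation, held 41 counts over the 18 libraries, against 3573 for Hoxa7 (0.024 against 4.52 CPM per kb of exon in the drug experiment). The block was broken within: Hoxa6 lies 1700 bases from Hoxa5 and 5768 bases from Hoxa7 and held 76 counts, against 10359 for Hoxa5 (0.311 against 23.63 CPM per kb). Its highest library, Vhl untreated C, had 12 counts, and 16 of the 18 libraries had at least 1.

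HoxB lies on the plus strand of chromosome 11, with Hoxb4 at 96318267 to 96321638 and Hoxb2 at 96350525 to 96354012. Here the block ended between Hoxb4, with 6001 counts, and Hoxb5, with 40 counts, 12145 bases away (9.09 and 0.060 CPM per kb). At its other end Hoxb1, which marks a single segment of the embryonic hindbrain, held 2 counts in all, against 4488 for its neighbour Hoxb2 (0.0050 against 5.51 CPM per kb). In the annotation Hoxa3 overlaps Hoxa4, Hoxa5 and Hoxa6 on its own strand. Hoxa3, Hoxa4, Hoxa5, Hoxa7, Hoxb2 and Hoxb3 also overlap antisense transcripts, and deposited values of Hoxa3, Hoxa7, Hoxb2 and Hoxb3 carried fractions in every library. Reads shared between overlapping genes may thus be split, and without a stated strand setting sense and antisense reads cannot be told apart, so the levels of these genes are uncertain to that extent.

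The promoter sequences of 3 neighbours across the break in HoxA and of Hoxb4, the last active gene of HoxB, show the region in front of an active gene beside that of a near-silent one. Each is the RefSeq window of 250 bases before to 50 bases after a start site (GRCm38.p6), read 5′ to 3′ on the gene's strand. Capitals mark matches to ACGTG or GCGTG, the core of the hypoxia response element, and to TTTATG, a core bound by Cdx factors, each searched on both strands. The windows are chr6:52204538-52204837 (minus strand) for Hoxa5, chr6:52208623-52208922 (minus strand) for Hoxa6, chr6:52218524-52218823 (minus strand, inside the longer Hoxa7 annotation of GENCODE) for Hoxa7 and chr11:96318017-96318316 (plus strand) for Hoxb4.
Hoxa5: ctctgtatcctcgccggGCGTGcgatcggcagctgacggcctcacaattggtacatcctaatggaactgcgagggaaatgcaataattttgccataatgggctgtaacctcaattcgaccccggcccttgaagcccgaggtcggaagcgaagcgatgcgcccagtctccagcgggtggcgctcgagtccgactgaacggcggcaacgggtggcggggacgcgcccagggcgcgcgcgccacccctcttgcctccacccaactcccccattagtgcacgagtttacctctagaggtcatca
Hoxa6: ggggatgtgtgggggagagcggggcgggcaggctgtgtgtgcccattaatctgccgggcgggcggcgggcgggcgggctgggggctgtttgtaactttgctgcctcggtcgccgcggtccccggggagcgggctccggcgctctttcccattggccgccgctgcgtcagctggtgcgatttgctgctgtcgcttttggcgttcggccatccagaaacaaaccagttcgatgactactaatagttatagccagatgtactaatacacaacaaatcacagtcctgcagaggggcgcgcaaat
Hoxa7: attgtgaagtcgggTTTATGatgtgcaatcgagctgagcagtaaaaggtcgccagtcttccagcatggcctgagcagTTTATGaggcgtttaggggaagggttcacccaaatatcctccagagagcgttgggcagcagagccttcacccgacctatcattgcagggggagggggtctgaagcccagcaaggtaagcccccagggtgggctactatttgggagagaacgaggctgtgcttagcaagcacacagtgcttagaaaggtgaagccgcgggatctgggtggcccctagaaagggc
Hoxb4: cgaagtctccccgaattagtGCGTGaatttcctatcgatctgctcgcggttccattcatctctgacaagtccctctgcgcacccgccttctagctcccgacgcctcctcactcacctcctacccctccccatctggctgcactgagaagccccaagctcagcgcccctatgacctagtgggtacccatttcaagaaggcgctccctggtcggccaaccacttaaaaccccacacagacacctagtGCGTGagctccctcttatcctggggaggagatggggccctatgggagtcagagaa

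In these sequences no match overlapped another. Hoxa7 held 2 matches to TTTATG and none to the hypoxia core; Hoxa5 held 1 match to the hypoxia core, Hoxb4 held 2, and Hoxa6 held neither motif. Of all 32851 RefSeq promoters of 300 bases, 43.8% held the hypoxia core and 11.9% held TTTATG. Promoters were matched for 21 Hox genes, with 23 sequences, of which 4 belong to active genes (Hoxa3, Hoxa5, Hoxa7 and Hoxb4). The hypoxia core was in 3 of these 4 and in 10 of the 19 from inactive genes, and TTTATG in 1 of 4 and 4 of 19. The Meis core TGACAG, in 19.2% of all promoters, was in 1 of 4 (Hoxa3) and 0 of 19, and the joint Hox and Pbx core TGATNNAT, in 8.85%, was in 0 of 4 and 3 of 19. These are matches of letters in 300 bases and no measure of binding.

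The other 30 Hox genes were at or near 0. Hoxc11, Hoxc12, Hoxd1 and Hoxd12 had no count in any of the 18 libraries, which allows a level of up to 0.0109 CPM over their 274396919 counts. Of the 30, 23 had at most 10 counts over the 18 libraries, and the median was 5. After Hoxa6 the highest were Hoxa9 with 41, Hoxb5 with 40, Hoxa10 with 32 and Hoxb8 with 24 counts. Summed over the 30 genes, a library held 22 to 33 counts in Vhl untreated cells against 19 to 27 in control untreated cells, 14 to 16 in Vhl AZD8330 cells against 14 to 17 in control AZD8330 cells, and 15 to 30 in Vhl DMSO cells against 7 to 9 in control DMSO cells. The groups overlapped in untreated cells and under AZD8330 and not in DMSO. Posterior genes made up 14, 3 and 6 of the counts of Vhl DMSO A, B and C, against 4, 3 and 2 in control DMSO A, B and C. In no group did any of the 30 genes reach a mean of 1 CPM, so neither genotype nor drug put a HoxC, HoxD or posterior Hox gene at the level of the active ones. In an edgeR fit without the minimum of 1 CPM, 23 of these genes could be fitted in each table, and 0 passed in any of the 6 comparisons, with 0 under an unadjusted p of 0.05 and a smallest adjusted p of 0.286. At these counts that does not show that they were unchanged.

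The comparisons of Vhl with control cells ask what the edit changed, once in untreated cells and once under each treatment. Hoxa7, the active gene nearest the posterior end and a patterning gene of the embryonic trunk, was higher in Vhl cells under every condition. Untreated, the 3 Vhl libraries (in the order A, B, C, as throughout) had 19.19, 17.94 and 17.5 CPM of Hoxa7, against 8.37, 8.32 and 7.03 CPM in the control libraries. In AZD8330 it was 25.38, 18.31 and 19.58 CPM in Vhl cells, against 7.54, 6.59 and 4.73 CPM in control cells. In DMSO it was 17.84, 17.24 and 20.67 CPM in Vhl cells, against 5.65, 6.62 and 5.78 CPM in control cells. In all 3 comparisons every Vhl library was above every control library.

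In edgeR's quasi-likelihood test Hoxa7 rose in Vhl cells 3.34-fold in AZD8330 (95% interval 2.56 to 4.37; log2 1.74 ± 0.18 SE, adjusted p = 8.46e-06) and 3.08-fold in DMSO (2.36 to 4.04; log2 1.63 ± 0.18 SE, adjusted p = 1.98e-05). All adjusted p-values below are from this test unless another is named. Both calls held under every one of 21 alternatives, with log2 changes between 1.54 and 1.89 in AZD8330 and between 1.48 and 1.70 in DMSO. In untreated cells the value was 2.30-fold (1.61 to 3.29; log2 1.203 ± 0.218 SE) and missed the threshold (adjusted p = 0.14). DESeq2 called it there (adjusted p = 9.2e-05), and so did edgeR without Vhl untreated A (log2 1.16, adjusted p = 0.046); without both A libraries it was log2 1.202 (adjusted p = 0.053). Vhl untreated A, whose Bnip3, a known hypoxia-inducible gene, stood at 159.7 CPM against 512.4 and 515.6 CPM in Vhl untreated B and C, was not lower in Hoxa7 than they were. That is 1 library, and whether Hoxa7 follows the hypoxia response was not tested. In bulk RNA, more cells with a transcript and more transcript per cell cannot be told apart.

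**Figure D2:**
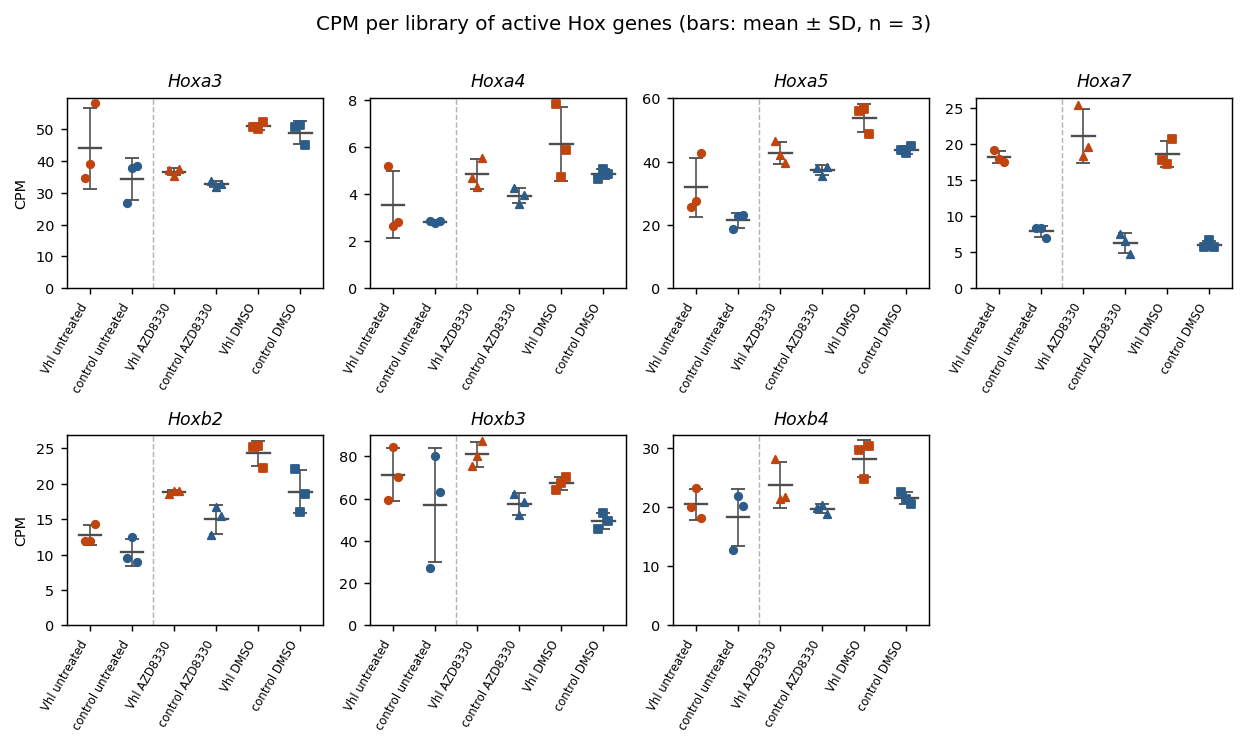
CPM of the 7 active Hox genes in each library (points; red Vhl, blue control) with the mean ± SD of 3 libraries (grey bars) for each of the 6 groups; the dashed line separates the untreated table from the drug experiment, and each axis starts at 0. Hoxa7 shows Vhl libraries between 17.24 and 25.38 CPM and control libraries between 4.73 and 8.37 CPM, and no other gene separates the genotypes as widely.

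Hoxb3, a hindbrain gene and the one with the most Hox counts, also rose with the edit in the drug experiment. In AZD8330 it was 75.38, 80.32 and 87.13 CPM in Vhl cells, against 62.1, 52.05 and 58.31 CPM in control cells (log2 0.49 ± 0.08 SE, adjusted p = 0.000337). In DMSO it was 63.94, 67.25 and 70.39 CPM in Vhl cells, against 45.51, 53.03 and 49.61 CPM in control cells (log2 0.45 ± 0.08 SE, adjusted p = 0.000888). The genotypes did not overlap under either treatment, and both calls held under all 21 alternatives. Untreated it was 59.38, 84.31 and 70.01 CPM in Vhl cells, against 27.32, 79.93 and 63.32 CPM in control cells. These groups overlapped (log2 0.32 ± 0.38 SE, adjusted p = 0.859), and control A alone was low: without it the log2 change was -0.0046 (adjusted p = 0.999; 0.571 to 0.999 over all alternatives).

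Hoxa5, which patterns the cervical and thoracic region and the lung, was 56.05, 56.55 and 48.66 CPM in Vhl DMSO cells, against 43.54, 42.59 and 44.97 CPM in control DMSO cells. It rose without overlap of the groups (log2 0.30 ± 0.07 SE, adjusted p = 0.00792), and the call held under all 21 alternatives. In AZD8330 it was 46.55, 42.19 and 39.53 CPM in Vhl cells, against 37.96, 35.35 and 38.37 CPM in control cells. There the groups again did not overlap, but the test was missed (log2 0.20 ± 0.08 SE, adjusted p = 0.065); it passed without Vhl AZD8330 C (0.035) or without Vhl DMSO C (0.0403), which enters through the shared spread. Untreated it was 25.71, 27.45 and 42.55 CPM in Vhl cells, against 18.81, 22.66 and 23.04 CPM in control cells, where Vhl C was high, the groups did not overlap and the test was missed (log2 0.57 ± 0.25 SE, adjusted p = 0.55).

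Hoxb4, a gene of cervical patterning also known from blood stem cells, was 29.62, 24.73 and 30.4 CPM in Vhl DMSO cells, against 22.66, 21.33 and 20.63 CPM in control DMSO cells. It rose (log2 0.39 ± 0.12 SE, adjusted p = 0.0204), with no overlap. The call was lost without Vhl DMSO A (adjusted p = 0.0631), Vhl DMSO C (0.0773), control DMSO B (0.0575) or control DMSO C (0.0646). In AZD8330 it was 28.21, 21.32 and 21.77 CPM in Vhl cells, against 19.96, 20.35 and 18.93 CPM in control cells (log2 0.27 ± 0.12 SE, adjusted p = 0.107). Vhl A was the high library there, and the groups did not overlap. Untreated values were 20.12, 23.26 and 18.14 CPM in Vhl cells, against 12.8, 21.83 and 20.17 CPM in control cells, which overlapped.

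Hoxb2, which acts in the hindbrain where facial motor neurons form, was 25.24, 25.28 and 22.25 CPM in Vhl DMSO cells, against 22.02, 15.98 and 18.49 CPM in control DMSO cells. The groups were separate by a narrow margin, and the rise passed only just (log2 0.37 ± 0.13 SE, adjusted p = 0.0438). That call held in 10 of 21 alternatives. Among the others, it was lost without Vhl DMSO A (0.111) or B (0.116), control DMSO B (0.169) or C (0.102), Vhl AZD8330 B (0.0556) or C (0.0541), or control AZD8330 C (0.0547), and also with DESeq2 (0.0502), DESeq2's size factors (0.05, just over the threshold) and no filter on low counts (0.0777). In AZD8330 it was 18.55, 18.9 and 19.0 CPM in Vhl cells, against 12.74, 16.76 and 15.49 CPM in control cells, with no overlap (log2 0.33 ± 0.13 SE, adjusted p = 0.076). Untreated it was 11.88, 11.92 and 14.33 CPM in Vhl cells, against 9.44, 12.51 and 8.92 CPM in control cells, which overlapped.

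Hoxa3 and Hoxa4 did not pass in any comparison of genotypes. Hoxa3, needed for the thymus and other organs of the pharyngeal arches, was 34.54, 38.92 and 58.28 CPM in Vhl untreated cells, against 26.68, 37.82 and 38.39 CPM in control untreated cells, with overlap and a high Vhl C. In AZD8330 it was 37.03, 35.32 and 37.42 CPM in Vhl cells, against 33.65, 31.83 and 32.85 CPM in control cells, without overlap (log2 0.16 ± 0.06 SE, adjusted p = 0.0738); without control DMSO C, which enters through the shared spread, it passed (0.0412). In DMSO it was 50.56, 50.01 and 52.13 CPM in Vhl cells, against 50.65, 51.22 and 44.9 CPM in control cells (log2 0.06, 95% interval -0.07 to 0.19). The DMSO groups overlapped almost fully, and the interval leaves out a change of the size seen for Hoxb3. Hoxa4, a gene of cervical patterning with the fewest counts among the active genes, ranged from 2.66 to 7.80 CPM over all libraries and was called in no comparison.

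Counted together, 5 of the 7 active Hox genes rose in Vhl DMSO cells (Hoxa5, Hoxa7, Hoxb2, Hoxb3 and Hoxb4) and none fell, where 13.8% of the 13460 tested genes rose and 18.5% fell (32.3% called in all). In AZD8330, 2 of 7 rose (Hoxa7 and Hoxb3), where 16.0% of tested genes rose and 14.0% fell (30.0% in all). In untreated cells 0 of 7 passed by edgeR, where 0.0147% of 13569 genes (2 genes) passed; without adjustment 1 Hox gene and 1267 genes in all were under 0.05, and DESeq2 called 1 of 7 and limma 0 of 7. Groups that did not overlap, with Vhl higher, were found for 2 of 7 untreated, 7 of 7 in AZD8330 and 5 of 7 in DMSO, where 7.92%, 22.3% and 19.5% of all tested genes were separate in that direction. With Vhl lower, no Hox gene was separate, where 7.86%, 20.7% and 25.3% of all tested genes were. The median log2 change over the 7 genes was 0.33 untreated, 0.30 in AZD8330 and 0.36 in DMSO, where over all tested genes it was 0.05, 0.01 and -0.03. All 7 estimates were positive in each of the 3 comparisons under all 3 scalings (TMM, DESeq2's size factors and library totals). Estimates of genes that were not called changed sign when libraries were left out. In untreated cells these were Hoxb3 (log2 0.32 with all libraries) and Hoxb4 (0.17) without control untreated A (-0.0046 and -0.03), Hoxa4 (0.33) without Vhl untreated A (-0.05), and Hoxb4 and Hoxa4 without both untreated A libraries (-0.02 and -0.05). The untreated estimates of these 3 genes thus rested on the A libraries. In DMSO Hoxa3 (0.06) changed sign without control DMSO C (-0.0020).

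**Figure D3:**
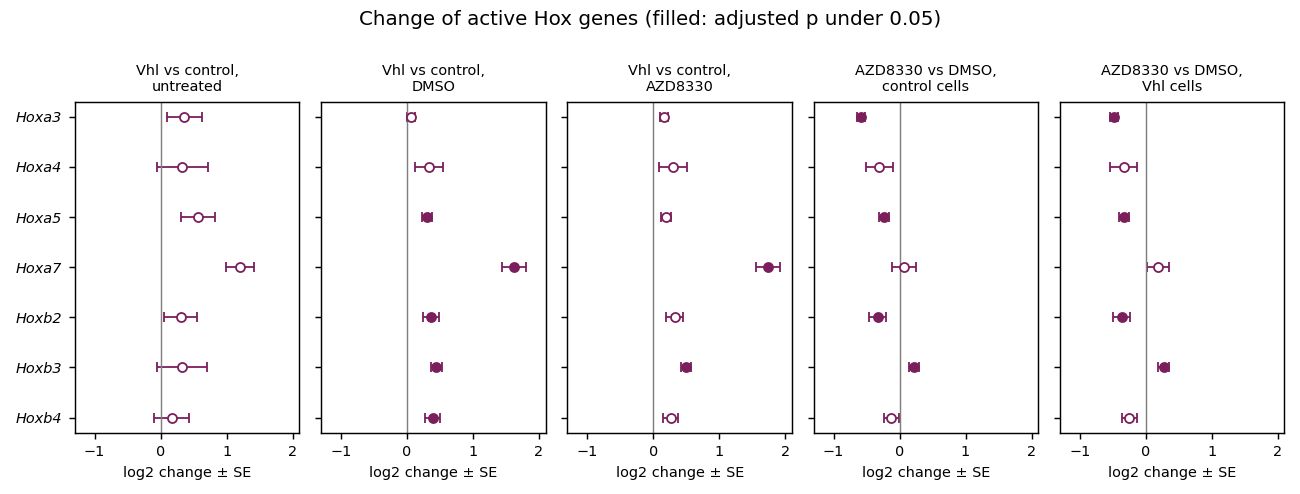
Log2 change ± SE of the 7 active Hox genes in 5 comparisons (panels), from edgeR's quasi-likelihood fit; filled points have an adjusted p under 0.05. Hoxa7 lies between 1.203 and 1.741 in the 3 comparisons of Vhl with control cells and near 0 in both comparisons of AZD8330 with DMSO, where Hoxa3 lies at -0.48 in Vhl cells and -0.58 in control cells.

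Summed over the 7 active genes, Hox transcripts were 176.0, 206.5 and 223.6 CPM in Vhl untreated cells, against 106.3, 185.8 and 163.7 CPM in control untreated cells. The sums were 235.8, 220.7 and 230.0 CPM in Vhl AZD8330 cells, against 178.2, 166.5 and 172.6 CPM in control AZD8330 cells, and 251.0, 245.8 and 250.4 CPM in Vhl DMSO cells, against 194.7, 195.9 and 189.2 CPM in control DMSO cells. The genotypes did not overlap under AZD8330 or DMSO, and in untreated cells Vhl A lay below control B. The mixture of Hox transcripts differed as well. As a ratio of CPM to Hoxb4 of the same library, free of library scaling and not corrected for gene length, Hoxa7 was 0.954, 0.771 and 0.965 in Vhl untreated cells, against 0.654, 0.381 and 0.348 in control untreated cells. In AZD8330 the ratio was 0.8998, 0.8589 and 0.8997 in Vhl cells, against 0.378, 0.324 and 0.250 in control cells. In DMSO it was 0.602, 0.697 and 0.680 in Vhl cells, against 0.2493, 0.3103 and 0.2803 in control cells. The genotypes were separate in all 3 pairs, and control untreated A was closest to the Vhl libraries. Divided by Hoxa5, Hoxa7 averaged 0.604 ± 0.173 in Vhl and 0.372 ± 0.070 in control untreated cells, where Vhl C (0.411) fell among the control libraries. It averaged 0.492 ± 0.056 against 0.170 ± 0.040 in AZD8330 and 0.349 ± 0.066 against 0.138 ± 0.015 in DMSO (SD, n = 3 each), without overlap. The ratio of Hoxb3 to Hoxb4 overlapped between genotypes in all 3 pairs.

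**Figure D4:**
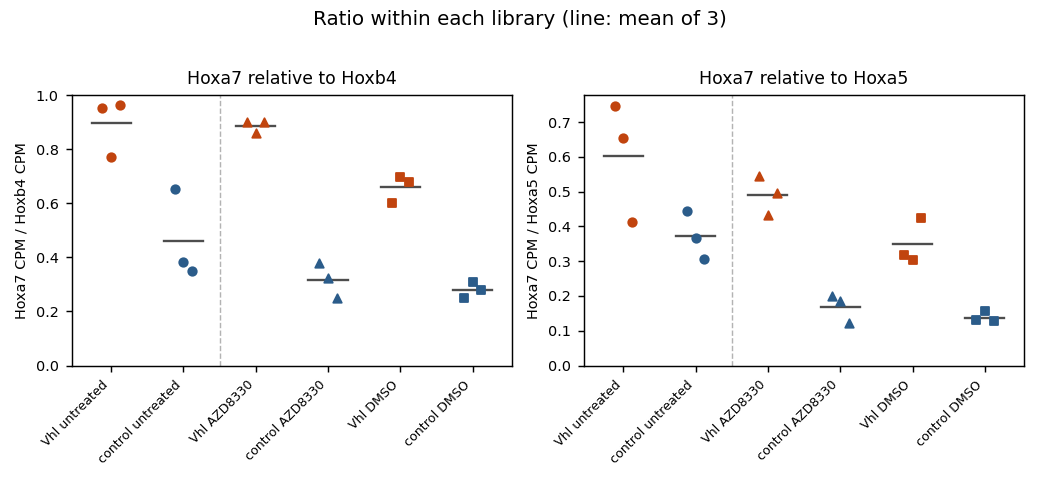
Ratio of Hoxa7 CPM to Hoxb4 CPM (left) and to Hoxa5 CPM (right) within each library (points; red Vhl, blue control) with the mean of 3 libraries (line); the dashed line separates the 2 tables. Relative to Hoxb4, Vhl libraries lie between 0.602 and 0.965 and control libraries between 0.249 and 0.654, separate within each treatment.

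The comparisons of AZD8330 with DMSO ask what MEK inhibition changed over 14 h in each genotype. They share their libraries with the comparisons above. Hoxa3 fell in both genotypes. It was 33.65, 31.83 and 32.85 CPM in control AZD8330 cells, against 50.65, 51.22 and 44.9 CPM in control DMSO cells (log2 -0.58 ± 0.06 SE, adjusted p = 2.69e-06), and 37.03, 35.32 and 37.42 CPM in Vhl AZD8330 cells, against 50.56, 50.01 and 52.13 CPM in Vhl DMSO cells (log2 -0.48 ± 0.06 SE, adjusted p = 2.31e-05). Treated and vehicle libraries did not overlap, and both calls held under all 21 alternatives.

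Hoxa5 fell in Vhl cells, to 46.55, 42.19 and 39.53 CPM in AZD8330 against 56.05, 56.55 and 48.66 CPM in DMSO (log2 -0.33 ± 0.08 SE, adjusted p = 0.00236), and this held under all 21 alternatives. In control cells it was 37.96, 35.35 and 38.37 CPM in AZD8330, against 43.54, 42.59 and 44.97 CPM in DMSO (log2 -0.23 ± 0.08 SE, adjusted p = 0.0177). That second call was lost without control DMSO C (0.0528) or control AZD8330 B (0.145), with library totals (0.0593) and with a mean of at least 5 CPM (0.0684). In both genotypes the treated and vehicle libraries did not overlap.

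Hoxb2 fell in both genotypes with less certainty. It was 18.55, 18.9 and 19.0 CPM in Vhl AZD8330 cells, against 25.24, 25.28 and 22.25 CPM in Vhl DMSO cells, without overlap (log2 -0.37 ± 0.13 SE, adjusted p = 0.0285). The call was lost without Vhl DMSO A (0.0773) or B (0.0808) or Vhl AZD8330 B (0.0622) or C (0.059). In control cells it was 12.74, 16.76 and 15.49 CPM in AZD8330, against 22.02, 15.98 and 18.49 CPM in DMSO, with overlap (log2 -0.33 ± 0.13 SE, adjusted p = 0.0415). This call held in 8 of 21 alternatives; among the others, it was lost without control DMSO A (log2 -0.20, 0.199) or C (0.0668), control AZD8330 A (log2 -0.22, 0.172) or C (0.0659), or Vhl AZD8330 A (0.0772), B (0.0531) or C (0.0528), and with DESeq2 (0.0646), its size factors (0.0553), library totals (0.0784), a mean of at least 5 CPM (0.086) and a fit of the control groups alone (0.12).

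Hoxb3 moved the other way. It was 75.38, 80.32 and 87.13 CPM in Vhl AZD8330 cells, against 63.94, 67.25 and 70.39 CPM in Vhl DMSO cells, a rise without overlap (log2 0.27 ± 0.08 SE, adjusted p = 0.0112) that was lost without Vhl AZD8330 C (0.0513). In control cells it was 62.1, 52.05 and 58.31 CPM in AZD8330, against 45.51, 53.03 and 49.61 CPM in DMSO, with overlap (log2 0.22 ± 0.08 SE, adjusted p = 0.0297). The second rise was lost without control DMSO A (0.127) or C (0.0598) or control AZD8330 A (0.124) or C (0.0688).

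Hoxa7 and Hoxb4 did not pass under the drug. For Hoxa7 the log2 change was 0.18 (95% interval -0.18 to 0.55) in Vhl cells and 0.07 (-0.33 to 0.47) in control cells. These intervals leave out a change as large as that between the genotypes. For Hoxb4 it was -0.25 ± 0.12 SE in Vhl cells (adjusted p = 0.0892) and -0.13 ± 0.12 SE in control cells (adjusted p = 0.375). In Vhl cells Hoxb4 passed without Vhl AZD8330 A (0.00356) or Vhl DMSO B (0.0335).

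In Vhl cells 3 of 7 active Hox genes fell under AZD8330 (Hoxa3, Hoxa5 and Hoxb2) and 1 rose (Hoxb3), where 25.6% of tested genes fell and 25.8% rose (51.4% called in all). In control cells the same 3 of 7 fell and 1 rose (Hoxb3), where 31.7% of tested genes fell and 29.1% rose (60.8% in all). The share of Hox genes called in each genotype was near the background. Treated libraries lay below vehicle libraries without overlap for 3 of 7 in Vhl cells (Hoxa3, Hoxa5 and Hoxb2) and 4 of 7 in control cells (Hoxa3, Hoxa4, Hoxa5 and Hoxb4), where 28.4% and 34.1% of all tested genes did, and above them for 1 of 7 in Vhl cells (Hoxb3) and 0 of 7 in control cells, where 30.0% and 32.2% of all tested genes did. The median log2 change over the 7 genes was -0.33 in Vhl cells and -0.23 in control cells, against 0.03 and -0.01 over all tested genes. The effect of the drug in Vhl cells minus that in control cells passed for 0 of 7 Hox genes by edgeR, DESeq2 and limma, and for 12.8% of tested genes by edgeR (7.81% higher and 4.96% lower). Without adjustment 0 Hox genes and 3450 genes in all were under 0.05, and the 95% intervals of this difference lay between log2 -0.672 and 0.658 over the 7 genes. For Hoxa7 the difference was log2 0.12 (95% interval -0.43 to 0.66).

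Noncoding and Evx genes of the Hox clusters formed a list of 20. 11 of the 19 with a row were at 0 in every library of the drug experiment. Among them were Hottip and Hotair, long noncoding RNAs of the posterior HoxA and of HoxC. Evx1 and Evx2, homeobox genes at the posterior ends of HoxA and HoxD, were also at 0. So were the microRNA genes Mir10a, Mir10b, Mir196a-1, Mir196a-2 and Mir196b. A 0 for a microRNA gene does not show here that it was silent. Of 5 tested, 2 rose in Vhl DMSO cells and 1 in Vhl AZD8330 cells, where 13.8% and 16.0% of all tested genes rose. Under AZD8330 2 of 5 fell in each genotype, where 25.6% of all tested genes fell in Vhl cells and 31.7% in control cells. None passed in untreated cells or in the difference of drug effects. Hotairm1, a long noncoding RNA of the HoxA cluster, was 15.93 ± 3.67 CPM in Vhl and 9.70 ± 0.99 CPM in control AZD8330 cells (log2 0.71 ± 0.17 SE, adjusted p = 0.0062), and 22.86 ± 1.68 CPM in Vhl and 16.31 ± 2.35 CPM in control DMSO cells (log2 0.49 ± 0.16 SE, adjusted p = 0.0374). Hoxaas3, which overlaps Hoxa7 on the other strand, did not pass: it was 4.71 ± 1.29 CPM in Vhl and 5.86 ± 0.80 CPM in control AZD8330 cells, and 3.91 ± 0.32 CPM in Vhl and 5.03 ± 0.94 CPM in control DMSO cells (SD, n = 3 each).

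Genes of the Pbx and Meis cofactors and the related Pknox and Tgif genes were expressed throughout. All 11 Pbx, Meis, Pknox and Tgif genes of the list were tested. In Vhl cells 2 rose and 2 fell in DMSO, a share near that of all tested genes (32.3% called). In AZD8330 0 rose and 2 fell, where 16.0% and 14.0% of all tested genes did. Meis2 was 61.5 ± 2.64 CPM in Vhl and 47.78 ± 1.34 CPM in control DMSO cells (log2 0.37 ± 0.07 SE, adjusted p = 0.00098), and the repressor Tgif2 was 12.09 ± 3.27 CPM in Vhl and 26.58 ± 3.86 CPM in control DMSO cells (log2 -1.14 ± 0.23 SE, adjusted p = 0.00183). Under AZD8330, 2 rose in Vhl cells and 4 in control cells, where 25.8% and 29.1% of all tested genes rose, and none fell. Meis2 rose to 77.45 ± 3.24 CPM in Vhl AZD8330 cells against 61.5 ± 2.64 CPM in Vhl DMSO cells, and to 80.48 ± 7.09 CPM in control AZD8330 cells against 47.78 ± 1.34 CPM in control DMSO cells. Its rise was smaller in Vhl cells (difference log2 -0.42 ± 0.09 SE, adjusted p = 0.00956). In untreated cells 0 of 11 passed.

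Known inputs to the clusters were partly absent. Cdx1 and Cdx4 were at 0 in every library of the drug experiment and Cdx2 had a mean under 0.1 CPM, and 3 of the 9 Cdx and Gdf11 inputs were tested. None passed between genotypes. Lin28b, an RNA-binding protein gene of early progenitors, fell under AZD8330 to 11.13 ± 1.08 CPM against 20.03 ± 1.17 CPM in Vhl cells, and to 9.51 ± 2.03 CPM against 21.08 ± 0.76 CPM in control cells. Of 16 retinoic acid genes 8 were tested in the drug experiment: 2 were higher and 1 lower in Vhl cells under each treatment, where 13.8% of all tested genes were higher and 18.5% lower in DMSO and 16.0% and 14.0% in AZD8330. Under AZD8330 5 of 8 rose and 1 fell in each genotype, where 25.8% of all tested genes rose and 25.6% fell in Vhl cells and 29.1% and 31.7% in control cells. The receptor gene Rara was 48.89 ± 2.92 CPM in Vhl and 20.25 ± 2.21 CPM in control AZD8330 cells, and 39.29 ± 0.15 CPM in Vhl and 20.3 ± 1.77 CPM in control DMSO cells (adjusted p = 2.43e-07 and 4.5e-06). Aldh1a1, a retinaldehyde dehydrogenase, was lower in Vhl cells, at 26.82 ± 0.59 against 100.2 ± 4.43 CPM in AZD8330 and 7.65 ± 1.28 against 23.49 ± 0.70 CPM in DMSO (adjusted p = 2.1e-09 and 7.49e-08).

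Factors of other regions differed in level by list. Of 17 forebrain and midbrain factors 4 were tested, and Otx2 had a mean under 0.1 CPM in the drug experiment. Lhx2 fell under AZD8330 in both genotypes (20.53 ± 0.81 against 48.09 ± 1.38 CPM in Vhl cells, 18.83 ± 2.19 against 46.28 ± 1.86 CPM in control cells), and the list counted 1 higher in Vhl DMSO and 2 higher in Vhl AZD8330 cells. Of 17 midbrain-hindbrain boundary and hindbrain factors 10 were tested in the drug experiment, with a summed level of 151.6 to 301.7 CPM per library there and 4 higher and 1 lower in Vhl DMSO cells and 4 higher in Vhl AZD8330 cells. Irx1, a homeobox gene of the early neural plate, was 123.4 ± 5.801 CPM in Vhl and 98.03 ± 3.96 CPM in control AZD8330 cells, and 53.96 ± 1.67 CPM in Vhl and 35.91 ± 1.58 CPM in control DMSO cells. Phox2a, of hindbrain motor and autonomic neurons, was at 0. Ventral spinal cord factors summed to 3749 to 4965 CPM over the 18 libraries. In untreated cells most of that sum was Olig1 and Olig2, which are also OPC markers. Olig1 averaged 3203 CPM in Vhl and 2828 CPM in control untreated cells, and Olig2 1091 and 921.6 CPM. Of 14 ventral factors 6 were tested, with 3 higher in Vhl cells under each treatment. Under AZD8330 1 ventral factor was higher and 3 were lower in each genotype. Of 15 dorsal factors 4 were tested, with 1 higher in Vhl cells under each treatment. Under AZD8330 1 dorsal factor was higher in each genotype and 1 was lower in control cells. The shares over all tested genes are those given above for the same comparisons. In untreated cells 0 factors of these 4 lists passed.

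Chromatin regulators of Hox clusters were broadly expressed, with 6 of 8 insulator and cohesin genes and all genes of the other 3 lists tested in the drug experiment. In Vhl DMSO cells 1 of 12 Polycomb complex 2 genes rose and 1 fell, 5 of 19 Polycomb complex 1 genes rose and 4 fell, 1 of 13 MLL and H3K27 demethylase genes rose and 2 fell, and 0 of 6 insulator and cohesin genes rose and 3 fell, where 13.8% of all tested genes rose and 18.5% fell. In Vhl AZD8330 cells the counts were 2 and 0, 6 and 1, 3 and 0, and 1 and 1, in the same order of lists, where 16.0% of all tested genes rose and 14.0% fell. Kdm6b, an H3K27 demethylase gene, was 225.6 ± 6.28 CPM in Vhl and 168.4 ± 8.41 CPM in control AZD8330 cells, and 153.8 ± 9.68 CPM in Vhl and 105.3 ± 4.28 CPM in control DMSO cells (adjusted p = 3.67e-05 and 6.33e-06). Under AZD8330 in Vhl cells these lists had 2 higher and 5 lower, 3 and 6, 2 and 6, and 0 and 5, where 25.8% of all tested genes rose and 25.6% fell. In control cells they had 2 higher and 5 lower, 2 and 7, 3 and 6, and 1 and 4, where 29.1% of all tested genes rose and 31.7% fell. Their part in the Hox values was not tested.

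All 10 OPC markers were tested in both experiments, with a summed level of 8443 to 14230 CPM over the 18 libraries. This did not go against the OPC label. It does not tell OPCs from astrocytes, since all 9 astrocyte markers were also tested in both experiments. The OPC markers summed to 10020 to 10180 CPM in Vhl and 9237 to 9308 CPM in control AZD8330 libraries. In DMSO their sum was 9388 to 9576 CPM in Vhl and 8443 to 8613 CPM in control libraries. In Vhl cells 7 of 10 OPC markers were higher and 1 lower under each treatment. Sox10 went against the majority, at 30.97 ± 3.75 CPM in Vhl and 97.3 ± 2.47 CPM in control AZD8330 cells. In DMSO it was 17.69 ± 2.40 CPM in Vhl and 51.19 ± 3.81 CPM in control cells. For the OPC list and the marker lists below, 13.8% of all tested genes were higher and 18.5% lower in Vhl DMSO cells. In Vhl AZD8330 cells 16.0% were higher and 14.0% lower. Pou5f1, Zfp42 and Dppa3 of pluripotent cells, Msgn1 and Mesp1 of mesoderm, Pdgfrb of mesenchyme and Tfap2b of neural crest were at 0 in every library. Other members of these lists were present. In untreated cells Esrrb of the pluripotent list averaged 4.806 CPM in Vhl and 3.1 CPM in control cells. Tbx18 of the mesoderm list averaged 16.55 and 16.2 CPM there, and Col1a1 of the mesenchymal list 13.83 and 7.278 CPM. The pluripotent list summed to 4.76 to 6.33 CPM in Vhl AZD8330, 5.95 to 7.50 in control AZD8330, 15.81 to 20.06 in Vhl DMSO and 19.17 to 23.74 CPM in control DMSO libraries. The sum of neuron markers was higher in Vhl cells in the drug experiment, as the Hox sum was. It was 2522 to 2551 CPM in Vhl and 2127 to 2138 CPM in control AZD8330 libraries, and 1487 to 1628 CPM in Vhl and 1019 to 1072 CPM in control DMSO libraries. Of 8 tested neuron markers 4 were higher in Vhl cells under each treatment and 1 was lower in AZD8330. Under AZD8330 against DMSO 4 of 8 neuron markers rose in Vhl cells and 6 of 8 in control cells and none fell (median log2 0.36 and 1.08), where the Hox medians were -0.33 and -0.23. Of all tested genes 25.8% rose and 25.6% fell in Vhl cells, and 29.1% rose and 31.7% fell in control cells. In untreated cells the neuron sums overlapped, at 1922 to 4227 CPM in Vhl and 2596 to 3258 CPM in control libraries. Most of the untreated sums was Map2, which averaged 2702 CPM in Vhl and 2532 CPM in control cells. Snap25, Syt1, Stmn2 and Slc17a6 averaged at most 1.594 CPM in either untreated group. Astrocyte markers summed to 3092 to 3147 CPM in Vhl and 2964 to 3092 CPM in control AZD8330 libraries, with 3 of 9 higher and 4 lower in Vhl cells, and to 2062 to 2107 CPM in Vhl and 1575 to 1608 CPM in control DMSO libraries, with 3 higher and 3 lower. Under AZD8330 against DMSO 8 of 9 rose in each genotype (median log2 1.24 in Vhl and 1.53 in control cells). In untreated cells they summed to 1663 to 2911 CPM in Vhl and 2205 to 2542 CPM in control libraries. Mesenchymal markers summed to at most 43.05 CPM and caudal epiblast and mesoderm markers to at most 21.36 CPM in any library. Neural crest and Schwann markers, which include Sox10, summed to 93.76 to 99.88 CPM in Vhl and 183.5 to 190.5 CPM in control AZD8330 libraries, to 105.2 to 113.3 CPM in Vhl and 141.6 to 155.7 CPM in control DMSO libraries, and to 53.88 to 441.9 CPM in Vhl and 147.3 to 724.1 CPM in control untreated libraries, with 3 of 5 lower in Vhl cells under each treatment and 1 higher in AZD8330. The part of these markers in the Hox values was not tested.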

How the data were processed

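RNA-seq of 18 libraries was used, 3 for each of 6 groups. Per the submitters' processing notes, the authors ran Salmon 0.14.1 with the mouse build mm10. Not given in the sources used here are the gene annotation, the strandedness and how transcripts were summed to genes. The deposited values are estimated counts per gene, in a table for the 6 untreated libraries and another for the 12 libraries of the drug experiment; the column totals differ between libraries, which TPM values would not do. The values were rounded to whole numbers. Another 2 columns of the untreated file hold the authors' means and were left out. Of these, the column for control equals the mean of its 3 libraries, and the column for Vhl equals the mean of control B, control C and Vhl A in all 54279 rows within 0.01.

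Each table was fitted by itself with edgeR 4.0.16 in R 4.3.3, with TMM scaling and the quasi-likelihood test, for genes whose mean reached 1 CPM (the count scaled to the TMM-adjusted library total). P-values were adjusted over every gene tested, by the Benjamini-Hochberg method, with a threshold of 0.05. All 4 drug-experiment groups entered 1 fit. DESeq2 1.42.0 and limma 3.58.1 served as alternatives, beside other scalings and filters, a replicate block and leaving out each library. The steps were tested on simulated data. Totals lay between 12391077 and 21160250 counts per library. The labels do not say whether replicate letters pair the libraries or mark separate cultures. The main fits did not pair them, so p-values measure the spread between these samples, which may be technical.

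Results on some genes are not reported here, and a Hox gene among them is left out of the members and their counts. The Hox genes and the 19 other gene lists were chosen with earlier results of these data known. Per-library values are given for each Hox gene called in any comparison and for the 5 highest per kb of exon. Other lists name at most 3 called members per comparison, those with the smallest p-values, beside members named for their level. Positions and exon lengths are from GENCODE M21 (GRCm38, 1-based); promoters are from RefSeq (GRCm38.p6), in which 21 of the 37 Hox genes matched. Figures were drawn with matplotlib 3.10.9.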

Additional observations from a re-analysis of the deposited data

How the results depend on the processing

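The count of Hox genes called moved by more than 1.5 times only as follows. In untreated cells it was 0, and 1 with DESeq2's Wald test; over the fits that leave out a library it ranged from 0 to 1. For AZD8330 against DMSO in control cells it was 4, and 2 with library totals in place of TMM and 2 with a mean of at least 5 CPM, and 1 to 4 leaving out a library. Leaving out a library gave 3 to 5 in Vhl against control DMSO cells (5 with all libraries) and 2 to 5 for AZD8330 in Vhl cells (4 with all libraries). For single genes, 827 alternative values were computed; 41 lost a call, 7 gained one and no called value changed direction. The cause was not tested.

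Over all genes, untreated calls numbered 2 by edgeR, 355 by DESeq2, 4 by limma at either pseudocount, 143 without a filter, 606 without the A libraries and 0 to 439 leaving out a library. Library totals put 56.6% of calls higher in Vhl DMSO cells, against 42.6% with TMM, and 44% against 61.2% in the difference of drug effects. DESeq2's size factors put 43.7% of calls higher in Vhl AZD8330 cells, against 53.3% with TMM. No scaling moved the median of all genes by over 0.1.

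The labels do not say whether the replicate letters pair the libraries. Same-letter deviations from the group means correlated between -0.129 and -0.006 untreated and between -0.074 and 0.073 in the drug experiment. With 3 libraries per group this cannot exclude a shared culture or day, and Sox10 was high in both untreated A libraries. With the letter as a replicate block, 0 Hox genes were called untreated and in the difference of effects, 4 in Vhl DMSO cells, 2 in Vhl AZD8330 cells, and for AZD8330 4 in Vhl and 3 in control cells; Hoxb2 was the gene lost.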
